A study of Homo sapiens with 34 samples.

Results

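Here 4 libraries of human embryonic stem cells (ESCs) carrying a short hairpin RNA against ZEB2 were compared, 2 harvested at day 2 of cardiac differentiation and 2 at day 6. They are 4 of the 34 libraries of the series, and were taken by their column names in the table of raw reads, with 1 row kept for each gene symbol. All cells were H1 ESCs, an established line, infected with a lentiviral GIPZ hairpin vector and selected with puromycin, and the ZEB2 line rests on 1 hairpin chosen for its knockdown among several tested. WT cells carried the same vector with a hairpin against GFP or with no hairpin, and the NKX2-5 shRNA and ZNF503 shRNA lines were made like the ZEB2 line. Every line received the GSK3β inhibitor CHIR99021, which turns on WNT signalling, for the first 24 hours and the WNT secretion inhibitor IWP2 from day 2 to day 5, without insulin before day 7. The day 2 harvest therefore follows the WNT pulse and the day 6 harvest follows the WNT block. WT, NKX2-5 shRNA and ZNF503 shRNA cells of the same days had 2 libraries each and are used below to ask whether the change in ZEB2 shRNA cells differed from theirs.

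ZEB2 is a zinc finger and homeodomain protein that binds E-boxes, partners with SMAD proteins and represses epithelial genes such as CDH1 in cells that leave an epithelium. In the embryo, and in this culture system, pluripotent cells first form mesendoderm under WNT and NODAL signals, marked by TBXT, EOMES and MIXL1. Mesoderm that expresses MESP1 then gives rise to cardiac progenitors (CPs) that express ISL1, GATA and HAND factors, and these become cardiomyocytes (CMs) that assemble actin and myosin into sarcomeres. Endothelium, blood, smooth muscle and epicardium share the mesodermal origin of CMs, whereas liver and gut arise from the endodermal branch of mesendoderm.

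The values are reads counted over each RefSeq gene region, and are printed as CPM, counts scaled by the library total after TMM correction for composition. The authors do not say whether reads in introns are included. Library totals were 34829063 and 38360045 counts at day 2, and 61508899 and 13806093 counts at day 6, so the second day 6 library was the shallowest of the 4. A gene with at most 3 counts in each library of a day is called here at the limit of detection. A fold against a day with no count at all is given as a bound computed from 3 counts in each library, and one against a day with a few counts as the ratio of pooled counts with its exact 95% interval (Clopper-Pearson), both of which cover counting error only. The 2 libraries of each day differed by more than counting noise, with a chi-square of 18.4 per gene at day 2 and 10.3 at day 6. The p-values rest on the spread between libraries of a group, estimated over all groups of a fit. That fit held 8 libraries of the line, or 16 libraries of all 4 lines. The submitters call the libraries of a group biological replicates. Changes were tested with edgeR's quasi-likelihood test, whose p-values were adjusted across the whole table after Benjamini and Hochberg, and a gene was called at a change of 8-fold or more with an adjusted p below 0.01. The verbs rose and fell are kept for called genes. In these mixed cultures, fewer cells of a type and less RNA per cell cannot be told apart.

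The hairpin's target was measured first. ZEB2 (NM_014795, chr2:145121931-145278624 in GRCh37, minus strand) had 0.0702 and 0.221 CPM in the day 0 libraries of the line, 11.4 and 12.8 CPM at day 2, 55.5 and 57.7 CPM at day 6, and 55.2 and 55.1 CPM in the 2 day 10 libraries used. The days 2 and 6 did not overlap, and the change between them was 2.22 on the log2 scale (SE 0.18, adjusted p = 1e-07), 4.67-fold, which is under the 8-fold threshold. On the CPM scale of the fit of all 4 lines, ZEB2 was 18.5 and 18.2 in WT cells at day 2 against 11.2 and 12.7 in ZEB2 shRNA cells, and 99.2 and 94.8 in WT cells at day 6 against 55.2 and 58.9. The knockdown line thus had 65.3% ± 5.71 (SD, n = 2) of the WT mean at day 2, where edgeR's test gave an adjusted p of 0.13, and 58.8% ± 2.66 (SD, n = 2) at day 6, where the log2 difference was -0.77 (SE 0.14, adjusted p = 0.001). These shares are of reads over the RefSeq gene region, and whether they measure mature mRNA alone is not known. By real-time PCR the authors report a much stronger reduction of the target mRNA. The change of ZEB2 itself in the knockdown line differed from that in WT cells by -0.15 (log2, SE 0.20, adjusted p = 0.74). ZEB2 was at 20.7 and 20.6 CPM in NKX2-5 shRNA cells and at 11.2 and 12.9 CPM in ZNF503 shRNA cells at day 6, each below both libraries of the line with the ZEB2 hairpin.

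Between day 2 and day 6, genes of the pluripotent and mesendodermal states fell. Genes of cardiac muscle and hepatic genes rose, many of them from at or near 0 counts. Of 17747 genes tested, 895 rose (5.04%) and 548 fell (3.09%), with a median log2 change of -0.01 over all genes. These shares are the background for the counts of called members in each list below. With no fold threshold, 4361 genes (24.6%) were higher and 4282 (24.1%) lower at 5% FDR. The 4 libraries separated the days without overlap for 1441 of the 1443 called genes, and for 73.8% of all genes tested. Of the genes that rose, 332 were at the limit of detection at day 2, and of those that fell, 148 were at the limit at day 6. Means of at least 10 CPM in the higher group were reached by 398 of the genes that rose and 206 of those that fell. The 10 genes with most reads took 5.22% and 5.36% of all CPM in the day 2 libraries and 8.59% and 8.29% in the day 6 libraries. By gene class, 832 protein-coding genes rose and 468 fell of 15621, and 45 lncRNA genes rose and 44 fell of 986.

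**Figure D1:**
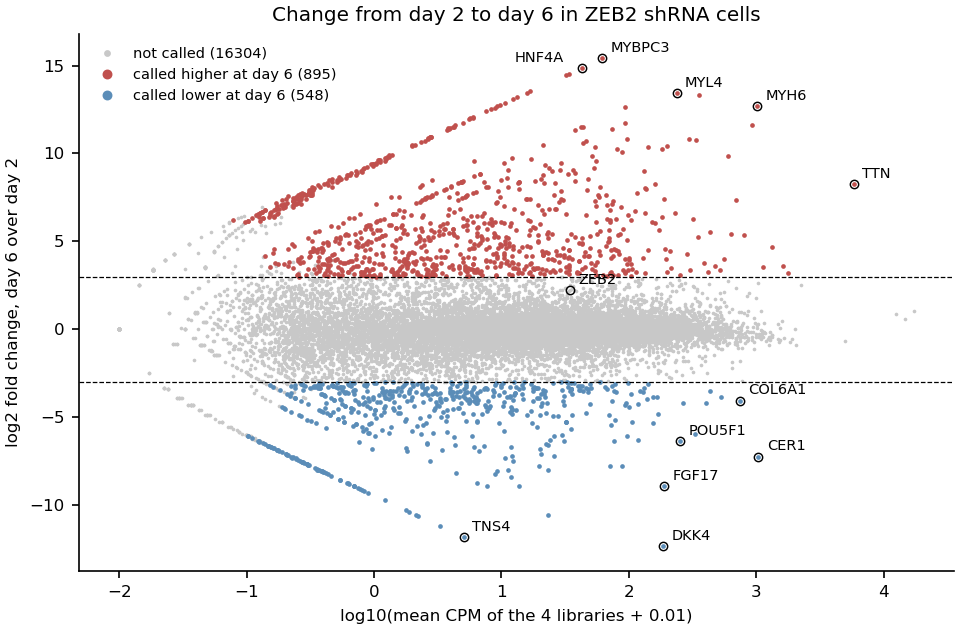
Log2 fold change from day 2 to day 6 in ZEB2 shRNA cells (y axis) against log10 of the mean CPM of the 4 libraries plus 0.01 (x axis), with 1 point for each of the 17747 genes tested and dashed lines at 8-fold. Red points are the 895 genes that rose and blue points the 548 that fell, and the straight diagonal rows at the edges are genes with 0 counts in both libraries of a day, whose fitted change depends on the prior count.

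Pluripotency genes fell at their core. Of 26 listed genes tested, 9 fell and none rose, with a median log2 change of -1.91 beside -0.01 for all genes. Of these, 8 belonged to the 13 transcription factors of the list. POU5F1, the OCT4 gene, had 497 and 501 CPM at day 2 and 5.58 and 6.94 CPM at day 6, a log2 change of -6.37 (SE 0.15, adjusted p = 5.3e-13). NANOG, its partner in the pluripotency circuit, had 54.4 and 48.7 CPM at day 2 and 0.338 and 0.373 CPM at day 6 (log2 change -7.21, SE 0.20, adjusted p = 2e-12). SOX2, which binds DNA together with OCT4, had 39.8 and 34.5 CPM and then 0.93 and 0.298 CPM. All 3 core factors stood apart between the days in every library, as did 1441 of the 1443 called genes. PRDM14, FOXD3, UTF1, ETV4 and DPPA2 also fell, ETV4 from 62 and 76.5 CPM to 2.66 and 1.79 CPM. DNMT3B, the de novo DNA methyltransferase of ESCs, was lower without reaching 8-fold (372 and 380.3 CPM, then 59.6 and 52 CPM, log2 change -2.75). LIN28A, an RNA-binding protein that blocks let-7 processing, had 1457 and 1440.2 CPM at day 2 and 1023 and 1099 CPM at day 6 (log2 change -0.45, adjusted p = 0.0011). The ESC marker ZFP42, also known as REX1, overlapped between the days (73.7 and 73.5 CPM, then 65.3 and 77.6 CPM). The fitted values of genes with next to no counts moved most with single libraries, as for FOXD3 (log2 -6.05, and -11.99 without day 6 replicate 1) and UTF1 (-5.48, and -8.87).

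Mesendoderm genes showed the most frequent falls of all lists. Of 22 genes tested 14 fell and none rose, with a median log2 change of -3.43, and the summed CPM of the list went from 4542 and 4811 to 427 and 403. Among the transcription factors, TBXT (Brachyury) had 42.8 and 45.6 CPM at day 2 and 0.338 and 0.895 CPM at day 6. MIXL1 had 76.4 and 99.7 CPM, then 3.1 and 3.51 CPM. GSC (Goosecoid) had 59.2 and 63 CPM, then 0.812 and 0.522 CPM. LHX1, MESP1, MESP2, TBX6 and SP5 fell too, without overlap between the days, which held for 1441 of the 1443 called genes. MESP1, which marks the first cardiac mesoderm, was already low at day 2 (7.58 and 11.8 CPM, then 1.23 and 0.448 CPM), and its log2 change of -3.30 lost the 8-fold call without day 2 replicate 2 (-2.95) or day 6 replicate 2 (-2.97). Among secreted factors, CER1 (Cerberus, an inhibitor of NODAL and BMP) had 2066 and 2058 CPM at day 2 and 11.5 and 17.1 CPM at day 6, 150.5-fold lower. FGF17 had 352 and 399 CPM, then 0.863 and 0.448 CPM (log2 change -8.92, SE 0.18, adjusted p = 2.4e-13). FGF4 had 45.1 and 47.5 CPM and then 0.0338 and 0 CPM, 1682-fold lower from 2 counts at day 6 (interval 465 to 13891). Outside the secreted factors, CYP26A1, an enzyme that breaks down retinoic acid, had 615 and 696 CPM and then 11.3 and 9.17 CPM. WNT3A and WNT8A fell from low levels, and WNT8A (0.874 and 1.88 CPM, then 0 in both) lost its call without day 6 replicate 1 (adjusted p = 0.014). The fitted change of WNT3A was -5.47 and became -10.52 without that library.

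Members of the mesendoderm list outside this fall included EOMES and NODAL. EOMES, a T-box factor of mesendoderm, had 605 and 618 CPM at day 2 and 186 and 168 CPM at day 6 (log2 change -1.79, SE 0.11, adjusted p = 5.1e-09). NODAL, the TGFβ family ligand that induces mesendoderm, had 149.8 and 139.6 CPM at day 2 and 119 and 127 CPM at day 6, a log2 change of -0.23 (SE 0.15) that did not pass the test (adjusted p = 0.21). Both are taken up again in the comparison with WT cells.

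Most of the cardiac transcription factors listed rose. Of 27 tested, 16 rose and none fell, with a median log2 change of 3.40 (3.22 with genes at the limit set to their bound), 20 were higher and 2 lower at 5% FDR, and 5 did not pass. NKX2-5 (NM_001166175, chr5:172659112-172662314 in GRCh37), the homeodomain factor of the early heart, had 0 and 0.198 CPM at day 2 and 37.8 and 35.2 CPM at day 6 (log2 change 8.41, SE 0.48, adjusted p = 3.1e-09, and 13.72 without day 2 replicate 2). HAND1, a bHLH factor of the first heart field, had 0.367 and 0.741 CPM, then 112 and 114 CPM. HAND2, its relative in the second heart field and right ventricle, had 0.113 and 0.198 CPM, then 78.6 and 72.7 CPM. MEF2C, a MADS-box activator of muscle genes, had 1.27 and 0.914 CPM, then 296 and 244 CPM. MYOCD (Myocardin), the coactivator of serum response factor, had 0.169 and 0.247 CPM, then 301 and 261 CPM, a log2 change of 10.36 (SE 0.24, adjusted p = 4.3e-13). For all of these the lowest day 6 library lay far above the highest day 2 library.

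The remaining factors did not all rise. GATA4, a zinc finger partner of NKX2-5, had 16.1 and 17.8 CPM at day 2 and 152 and 142 CPM at day 6 (log2 change 3.12, SE 0.11). TBX20 went from 6.85 and 6.5 CPM to 161 and 139.8 CPM, and TBX3, a T-box repressor of the conduction system, from 16.1 and 19.9 CPM to 167 and 168 CPM. ISL1, the LIM homeodomain factor of CPs, rose from 4.17 and 3.09 CPM to 142 and 128 CPM. TBX5, mutated in Holt-Oram syndrome, had 1.33 and 0.989 CPM and then 9.98 and 9.03 CPM, and its log2 change of 3.05 fell under 8-fold without day 2 replicate 2 (2.86), without day 6 replicate 1 (2.98) and without TMM scaling (2.95). GATA6 was well expressed by day 2 (60.4 and 76.7 CPM, then 93.4 and 99.9 CPM, log2 change 0.49, adjusted p = 0.0063). FOXC1, a forkhead factor of mesoderm, went the other way (83.3 and 88.7 CPM, then 14.9 and 13.8 CPM, log2 change -2.58). TBX2, GATA5, SMYD1, NKX2-6, ZFPM2 and HEY1 complete the factors that rose.

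Among the whole lists, the sarcomere list held the largest share of genes that rose, closely followed by the endodermal and hepatic list (14 of 20). Of 36 members tested 26 rose and none fell, with a median log2 change of 6.72 (5.58 with genes at the limit set to their bound) beside -0.01 for all genes, and MYL2 and LMOD3 were too low to be tested. The summed CPM of the list went from 448 and 479 at day 2 to 25222 and 23669 at day 6. Titin alone, the giant spring of the sarcomere (TTN, NM_001267550, chr2:179390716-179695529 in GRCh37), had 38.2 and 37.3 CPM and then 11990 and 11258 CPM (log2 change 8.27, SE 0.19, adjusted p = 4.1e-13), a level that also scales with the length of its gene.

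Promoters of 4 members that rose are printed because each holds a CArG box, the site bound by serum response factor, whose coactivator MYOCD rose in the same cells. They are the 250 bases before the RefSeq gene start in GRCh38.p14, 5′ to 3′ on the gene's strand, with the CArG box in capitals.
MYL7 promoter (chr7:44141333-44141582, minus strand): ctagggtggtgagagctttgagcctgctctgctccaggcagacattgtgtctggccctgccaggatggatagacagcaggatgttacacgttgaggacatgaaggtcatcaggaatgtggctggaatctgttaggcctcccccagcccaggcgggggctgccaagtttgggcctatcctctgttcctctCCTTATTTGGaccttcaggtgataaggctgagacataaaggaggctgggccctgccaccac
ACTC1 promoter (chr15:34795550-34795799, minus strand): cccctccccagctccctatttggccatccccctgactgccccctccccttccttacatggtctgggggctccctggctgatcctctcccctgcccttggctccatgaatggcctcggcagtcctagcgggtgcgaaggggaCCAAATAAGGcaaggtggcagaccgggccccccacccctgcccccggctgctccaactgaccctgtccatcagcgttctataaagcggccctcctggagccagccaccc
LDB3 promoter (chr10:86668261-86668510, plus strand): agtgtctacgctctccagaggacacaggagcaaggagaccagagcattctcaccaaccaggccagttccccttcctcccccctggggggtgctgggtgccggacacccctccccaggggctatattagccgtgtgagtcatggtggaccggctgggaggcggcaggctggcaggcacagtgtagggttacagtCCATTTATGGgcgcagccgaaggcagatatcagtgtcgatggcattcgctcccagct
MYOM1 promoter (chr18:3219969-3220218, minus strand): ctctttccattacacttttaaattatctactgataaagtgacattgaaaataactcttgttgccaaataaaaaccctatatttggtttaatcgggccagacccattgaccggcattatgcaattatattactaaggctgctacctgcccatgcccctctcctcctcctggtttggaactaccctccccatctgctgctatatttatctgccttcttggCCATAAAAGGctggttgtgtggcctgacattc

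The CArG box began 61 bases before the start of MYL7, 109 before that of ACTC1, 57 before that of LDB3 and 32 before that of MYOM1. In windows of 300 bases (these 250 and the next 50), a CArG box stood in 5 of the 24 sarcomere promoters that the RefSeq table holds (20.8%), in 3.24% of 649 promoters of genes that rose, in 1.45% of 344 of genes that fell, in 1.18% of 13364 of genes tested and in 1.29% of all 27305 promoters. The E-box CAGGTG, the letters that ZEB2 is known to bind, stood on either strand in 22.5% of promoters of genes that rose, 20.9% of those that fell, 19.2% of those tested and 20.6% of all. In the same order, the GATA motif AGATAA stood in 14.6%, 9.3%, 6.14% and 10.5%. The T-box core AGGTGT, which overlaps the E-box where CAGGTGT occurs, stood in 9.55%, 12.8%, 9.44% and 11.4%, and the NKX2-5 core AAGTG in 40.4%, 39.2%, 39.1% and 43.4%. These shares are descriptions of letters in a window and were not tested, and a match is not a bound site.

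Of the 4 genes with a printed promoter, MYL7, the atrial regulatory myosin light chain, had 0.62 and 0.544 CPM at day 2 and 1903 and 1814 CPM at day 6 (log2 change 11.64, SE 0.24, adjusted p = 2.5e-13). ACTC1, cardiac α-actin, had 1.41 and 1.19 CPM, then 1231 and 1181 CPM, 931-fold higher. LDB3, a Z-disc PDZ-LIM protein, had 0.564 and 0.667 CPM, then 41.7 and 27.7 CPM. MYOM1, the M-band protein myomesin, changed least of them (2.65 and 4.77 CPM, then 36.3 and 25.4 CPM), and its log2 change of 3.06 fell under 8-fold without day 2 replicate 1 (2.71), without day 6 replicate 1 (2.78) and without TMM scaling (2.95). None of the 4 overlapped between the days, which held for 1441 of the 1443 called genes.

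In the thick filament, 7 of 9 tested genes rose. MYH6 (NM_002471, chr14:23851191-23877482 in GRCh37), α-myosin heavy chain, had 0.254 and 0.346 CPM at day 2 and 2182 and 1879.7 CPM at day 6 (log2 change 12.70, SE 0.32, adjusted p = 8.3e-13). MYH7, β-myosin heavy chain, had 0.0564 and 0.0494 CPM, then 207 and 168 CPM, 3789-fold higher from 4 counts at day 2 (interval 1479.7 to 13909). MYH6 and MYH7 are neighbouring near-identical genes and 1 best hit was kept for each read, so the split of reads between them is uncertain. MYL4, the atrial essential light chain, had 0.0846 and 0 CPM, then 484 and 465 CPM, 12159.6-fold higher from 3 counts at day 2 (interval 4160.4 to 58966). MYBPC3, cardiac myosin-binding protein C, had no count at day 2 and 142 and 104 CPM at day 6, at least 1555-fold higher. In the thin filament, 6 of 10 rose, among them TNNT2, cardiac troponin T (0.367 and 0.222 CPM, then 410.1 and 380.4 CPM), TNNC1 (0.479 and 0.519 CPM, then 263 and 264 CPM) and TPM1, α-tropomyosin, from 102 and 96 CPM to 2573 and 2528 CPM. The slow skeletal troponin I gene TNNI1, the fetal isoform of the heart, had 0.113 and 0.0247 CPM, then 688 and 720 CPM, with the smallest adjusted p of the list (1.7e-13).

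The adult troponin I gene did not follow the fetal one. TNNI3, cardiac troponin I, had 3.95 and 6.03 CPM at day 2 and 2.15 and 2.83 CPM at day 6 (log2 change -1.05, SE 0.38, adjusted p = 0.035, and -0.70 without day 2 replicate 2). TCAP (telethonin), which caps titin at the Z-disc, had 0.789 and 1.01 CPM, then 0.693 and 0.597 CPM (adjusted p = 0.42). DES (desmin), the muscle intermediate filament, overlapped between the days (3.5 and 4.25 CPM, then 2.62 and 4.03 CPM, adjusted p = 0.38), and its log2 change of -0.29 turned to 0.07 without day 6 replicate 1. ACTA1 and TPM2 were higher without reaching 8-fold. Among the Z-disc and M-band genes, 13 of 17 rose, among them NEBL, the nebulin relative of cardiac muscle, from 41.5 and 35.2 CPM to 1595 and 1511 CPM, and ANKRD1, a stretch-responsive nuclear and titin-binding protein, from 0.254 and 0.371 CPM to 597 and 579 CPM.

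**Figure D2:**
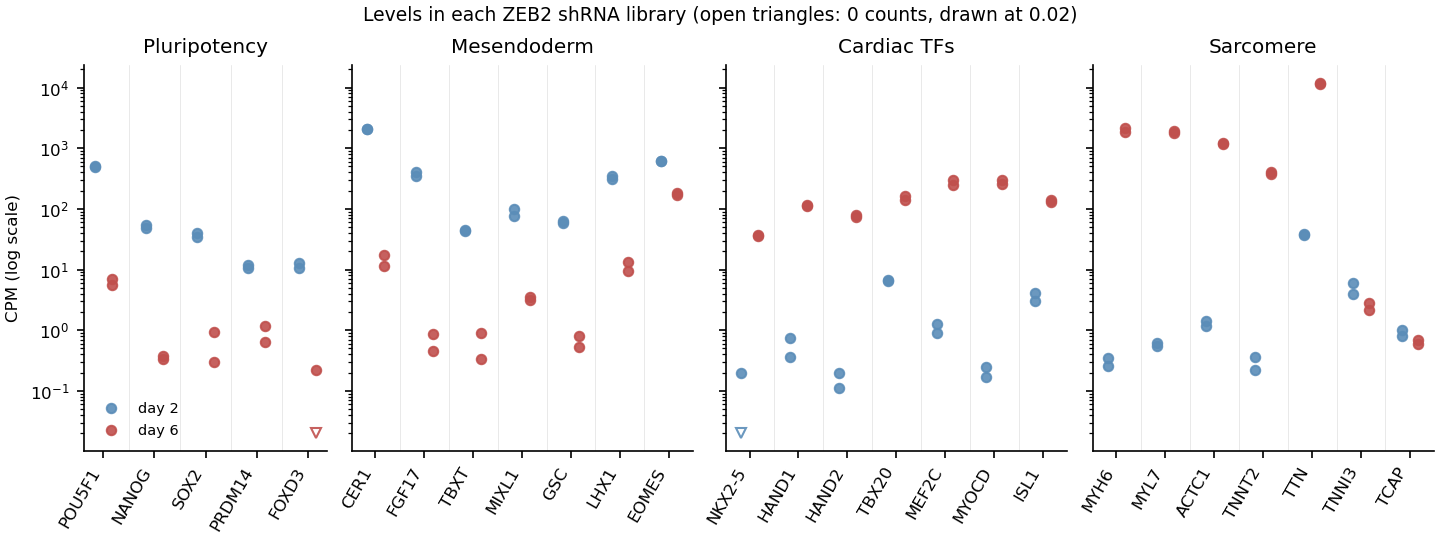
CPM in each ZEB2 shRNA library (log y axis, 1 point per library, blue for day 2 and red for day 6) of 5 pluripotency, 7 mesendoderm, 7 cardiac transcription factor and 7 sarcomere genes, with open triangles for 0 counts. POU5F1 and CER1 drop between the days, EOMES stays above 168 CPM, MYH6, MYL7 and ACTC1 climb from under 1.5 CPM to 1181 CPM or more, and TNNI3 and TCAP do not climb.

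Genes of the contraction cycle beyond the sarcomere moved less uniformly. Of 12 calcium handling genes, 4 rose and none fell (median log2 change 1.61, or 0.97 with genes at the limit set to their bound). PLN (phospholamban), the regulator of the SERCA pump, had no count at day 2 and 23.2 and 19.7 CPM at day 6, at least 270.4-fold higher. SLC8A1, the sodium-calcium exchanger, had 14.7 and 14.5 CPM, then 254 and 228 CPM, and JPH2, which ties the sarcoplasmic reticulum to the surface membrane, had 0.282 and 0.445 CPM, then 61.7 and 50.9 CPM. SRL also rose. RYR2, the calcium release channel, was already at 101 and 97.3 CPM at day 2 and at 287 and 218 CPM at day 6 (log2 change 1.36, adjusted p = 1.4e-06). CACNA1C, the L-type channel, and TRDN (triadin) were lower at day 6 at 5% FDR, with log2 changes of -1.13 and -1.92, so that the list had 7 higher and 3 lower members at that threshold.

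Of 23 channel and natriuretic peptide genes, 7 rose and none fell, with 10 higher and 9 lower at 5% FDR and a median log2 change of 0.34. HCN4, the main pacemaker channel of the sinus node, had 4.82 and 5.66 CPM, then 27.6 and 17 CPM, and did not reach 8-fold. CACNA1D, the second L-type channel, had 0.536 and 0.741 CPM, then 25.5 and 16.1 CPM. NPPB, brain natriuretic peptide, had 0.0282 and 0.148 CPM, then 51.2 and 48.1 CPM, while NPPA, atrial natriuretic peptide, reached 2.1 and 2.39 CPM.

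Of 24 genes of muscle energy supply, 7 rose and 2 fell (median log2 change 0.53), beside 5.04% and 3.09% of all genes. PPARGC1A, the coactivator of mitochondrial biogenesis, had 0.987 and 1.09 CPM, then 157 and 137 CPM (log2 change 7.14, SE 0.18, adjusted p = 8.6e-13). FABP3, the heart fatty acid binding protein, had 4.14 and 2.97 CPM, then 40.5 and 36 CPM. CKM, CKMT2, COX6A2, PYGM and MB also rose, from at most 1.11 CPM. CPT1A, the liver form of the enzyme that admits fatty acids to mitochondria, fell from 63.7 and 62.9 CPM to 5.65 and 5.45 CPM, and COX7A1 fell from low levels. The glucose transporter gene SLC2A3 was 5.65-fold higher (681 and 671 CPM, then 3789 and 3852 CPM), and LDHA, lactate dehydrogenase A, was lower (450.5 and 397 CPM, then 111 and 139 CPM, log2 change -1.77).

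Markers of other lineages were measured beside the cardiac genes. Of 17 endothelial genes 8 rose and 1 fell (median log2 change 2.06), and the sum of the list went from 345 and 348 CPM to 566 and 532 CPM. CDH5 (VE-cadherin) had 0 and 0.0494 CPM, then 9.71 and 9.62 CPM, and TEK, the angiopoietin receptor, had 0.141 and 0.272 CPM, then 27.1 and 22.3 CPM. PECAM1, TIE1, ERG, FLI1, EMCN and ESAM rose too, and KDR, a VEGF receptor also found on CPs, was high on both days (207 and 200.3 CPM, then 400.1 and 380.3 CPM). VWF (von Willebrand factor) fell, from 30.3 and 36.9 CPM to 2.37 and 1.34 CPM. Of 18 blood genes only 11 could be tested, of which 5 rose, with a list sum of 16.4 and 17.9 CPM at day 2 and 46.8 and 47.5 CPM at day 6. HBE1, embryonic ε-globin, had 0.338 and 0.321 CPM, then 11.2 and 10.6 CPM, and TAL1, a hemogenic bHLH factor, had 0 and 0.297 CPM, then 8.25 and 8.06 CPM (log2 change 5.68, and 11.56 without day 2 replicate 2). GATA1, the erythroid master factor, was among the 7 too low to be tested.

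Of 11 smooth muscle genes 6 rose and none fell, with a median log2 change of 4.07 and a sum that went from 152 and 137 CPM to 1189 and 1293 CPM. ACTA2, smooth muscle α-actin, had 0.0564 and 0.222 CPM, then 111 and 109.7 CPM, and TAGLN (SM22α) had 17.1 and 19.2 CPM, then 376 and 423 CPM. Both are also expressed in immature CMs, and MYH11, smooth muscle myosin heavy chain, reached 1.25 and 1.34 CPM without being called. The actin genes are near-identical in their coding parts, so the split of reads between ACTA2 and ACTC1 is uncertain. Of 9 epicardial genes 4 rose, BNC1 from 0.113 and 0.0494 CPM to 21 and 24.1 CPM. WT1, the defining epicardial factor, had reads in 1 library of the 4 (0.812 CPM in day 6 replicate 1), so that the days overlapped and its log2 change of 7.59 became 0.0 without that library, and its call was also lost without either day 2 library (adjusted p = 0.018 and 0.023).

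Endodermal and hepatic genes were measured in the same cultures. Of 20 tested, 14 rose and none fell, with a median log2 change of 5.11 (4.39 with genes at the limit set to their bound) and a sum that went from 160.3 and 173 CPM to 896 and 1282 CPM. HNF4A, the hepatic nuclear receptor, had no count at day 2 and 77.1 and 93.7 CPM at day 6, at least 1076-fold higher. Among secreted liver proteins, APOA1 had 0.226 and 0.0989 CPM, then 133 and 221 CPM. TTR (transthyretin) had 0.113 and 0 CPM, then 125 and 170.2 CPM. APOB had 1.16 and 0.914 CPM, then 188 and 268 CPM. AFP (α-fetoprotein) had 0.254 and 0.297 CPM, then 29.1 and 48.1 CPM. In each of these the second day 6 library was higher than the first, and neither came near the day 2 level. ALB (albumin) remained low, at 0.964 and 1.27 CPM, and its log2 change of 3.29 was 2.64 without day 2 replicate 2. Of the 8 endoderm transcription factors in the list, 4 rose and none fell, with 5 higher and 2 lower at 5% FDR. SOX17 and FOXA2 were not among those that rose. SOX17 had 50.7 and 64.5 CPM, then 12.8 and 19.5 CPM (log2 change -1.87), and FOXA2 had 36.3 and 38.8 CPM, then 24.1 and 23 CPM. The part of any of these cell types in the cardiac counts was not tested.

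Neural and ectodermal genes moved both ways, and 5 of 15 were too low to be tested. TFAP2A, LHX2 and DLX5 rose and SIX3 and SOX1 fell. SIX3, a forebrain homeodomain factor, had 20.1 and 19.7 CPM, then 1.15 and 1.12 CPM, and SOX1 lost its call without day 6 replicate 1 (adjusted p = 0.022). LHX2 had a log2 change of 6.20, and of 9.6 without day 2 replicate 1.

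**Figure D3:**
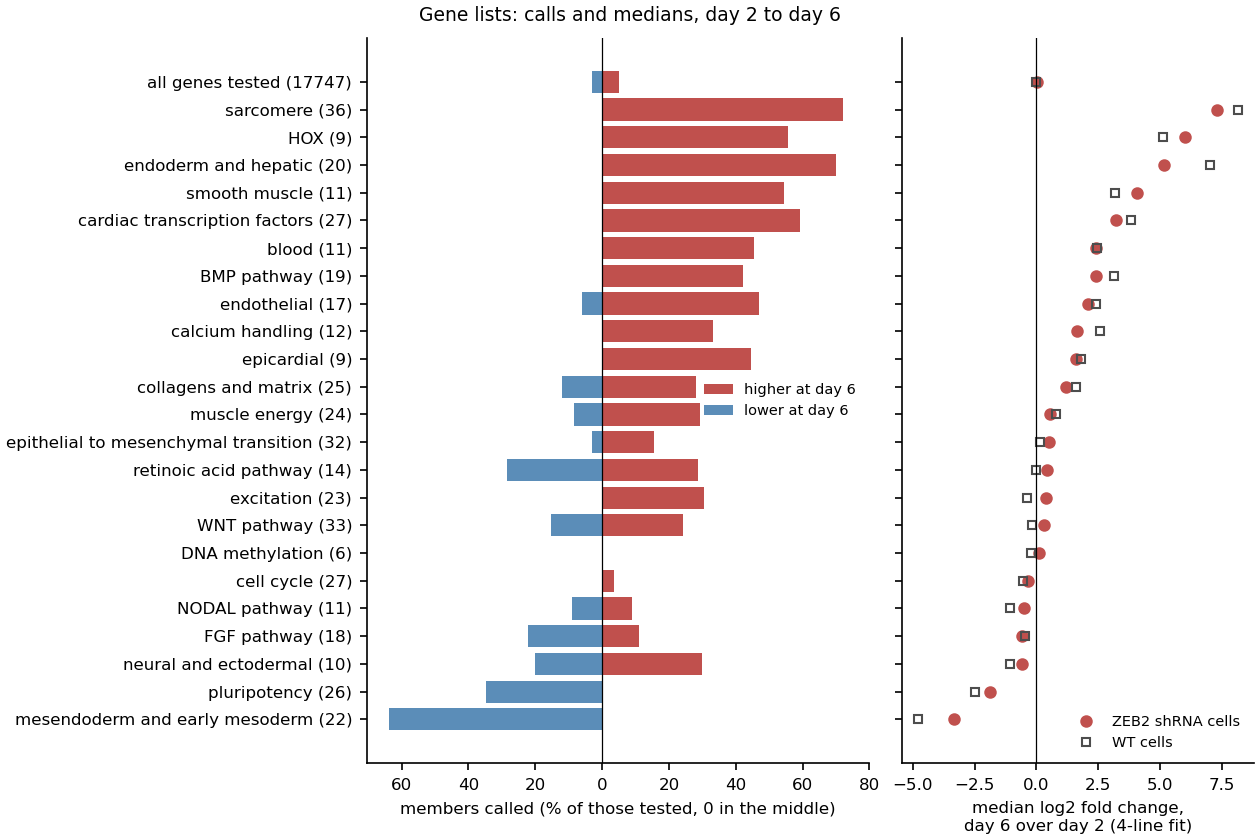
Left, the percentage of each list's tested members that rose (red, to the right of 0) or fell (blue, to the left of 0), with the number tested in brackets. Right, the median log2 fold change of each list in ZEB2 shRNA cells (red circles) and in WT cells (open squares), both from the fit of all 4 lines and ordered by the former, from sarcomere (7.32 and 8.15, 35 genes) to mesendoderm (-3.35 and -4.80, 23 genes), with all genes tested in the top row.

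Signalling genes were described by pathway. In the WNT list, 8 of 33 rose and 5 fell (median log2 change 0.58), beside 5.04% and 3.09% of all genes. The sum of ligands and secreted regulators went from 1213 and 1203 CPM to 375 and 392 CPM. DKK4, a secreted WNT inhibitor that WNT itself induces, had 369 and 370.3 CPM at day 2 and 0.0846 and 0 CPM at day 6 (adjusted p = 2.3e-12 by edgeR). It was 5366-fold lower from 5 counts at day 6 (interval 2299 to 16526), and the fitted log2 change of -12.34 became -16.97 without day 6 replicate 1. SFRP2, another secreted WNT regulator, had 139 and 142 CPM, then 0.66 and 0.597 CPM. AXIN2, a standard readout of WNT signalling, was lower at 5% FDR (53.6 and 59.8 CPM, then 23.5 and 22.2 CPM, log2 change -1.31). The noncanonical ligand WNT11, known for its part in heart formation, rose from 2.03 and 1.98 CPM to 22.2 and 23.3 CPM, as did WNT2, WNT6, SFRP5 and RSPO3. BAMBI had 29.2 and 27.1 CPM, then 535 and 553 CPM, and the receptor LGR5 had 0 and 0.247 CPM, then 78.6 and 66.1 CPM (log2 change 9.08, and 14.71 without day 2 replicate 2). RSPO2, the R-spondin that signals through LGR receptors, had no count at day 2 and 18.8 and 18.4 CPM at day 6, at least 234-fold higher.

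The NODAL list had 1 gene that rose and 1 that fell of 11. LEFTY2, a NODAL antagonist that NODAL signalling induces, had 2.4 and 2.62 CPM at day 2 and 29.1 and 26 CPM at day 6 (log2 change 3.46, SE 0.29, adjusted p = 2e-07). Its neighbour LEFTY1 had 7.67 and 7.66 CPM, then 3.35 and 2.76 CPM (log2 change -1.28, adjusted p = 0.00025). The 2 genes are near-identical, so the split of reads between them is uncertain. CER1 is the gene that fell.

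Of 19 BMP list genes 8 rose and none fell (median log2 change 2.38). At 5% FDR 18 were higher and 1 lower. BMP4, the ligand that patterns mesoderm, had 11.2 and 10.4 CPM, then 185 and 166 CPM. BMP5 had 0.169 and 0.0989 CPM, then 162 and 162 CPM (log2 change 10.23, SE 0.20, adjusted p = 1.7e-13). Antagonists rose too, with BMPER at 3.98 and 4.62 CPM, then 318 and 284 CPM, and NOG (Noggin) at 0.0564 and 0.0989 CPM, then 7.83 and 9.03 CPM. SMAD6, the inhibitory SMAD that BMP signals induce, had 11.7 and 13.3 CPM, then 190.1 and 189.8 CPM. BMP6, BMP10 and GDF6 were the other genes that rose. BMP3, a family member outside the list that was looked up after the values were seen, fell (mean of 4.61 CPM over the 4 libraries, log2 change -4.46). In the FGF list, by contrast, 2 rose and 4 fell of 18 (median log2 change -0.61), beside 5.04% and 3.09% of all genes. FGF10, a ligand of the second heart field, went from 1.1 and 0.964 CPM to 16.2 and 14.1 CPM, and FGF19 from 19.5 and 21 CPM to 0.22 and 0.895 CPM.

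In the retinoic acid list, 4 of 14 rose and 4 fell (median log2 change 0.39), beside 5.04% and 3.09% of all genes. Of the genes for synthetic enzymes, ALDH1A1 rose from 0.818 and 1.24 CPM to 36.8 and 51.9 CPM, and RDH10 rose from 11.9 and 11.7 CPM to 100.4 and 97.9 CPM, the latter with a log2 change of 3.07 that was 2.97 without TMM scaling. ALDH1A3, another such enzyme, went the other way without reaching 8-fold (41.3 and 34.8 CPM, then 7.59 and 7.83 CPM, log2 change -2.31, adjusted p = 2.5e-08), and ALDH1A2 was too low to be tested. The receptor gene RARB, itself induced by retinoic acid, had 0.226 and 0.148 CPM, then 31.3 and 32 CPM. CRABP1, an intracellular binding protein, fell from 144 and 158 CPM to 4.16 and 4.48 CPM, with CYP26A1, CYP26C1 and RARG. CYP26C1 lost its call when any of the 4 libraries was left out and under DESeq2 (adjusted p = 0.056). Only 9 of 26 HOX genes could be tested, and 5 of these rose, all in the HOXB cluster from HOXB2 to HOXB6. HOXB2 had 0.874 and 0.766 CPM, then 13.5 and 18.9 CPM, and HOXB3 had 0.113 and 0.148 CPM, then 12.8 and 10.1 CPM. HOXB5 lost its call without day 6 replicate 1 (adjusted p = 0.027).

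Because ZEB2 is known as a factor of epithelial to mesenchymal transition (EMT), its epithelial and mesenchymal genes were listed apart. Of 14 mesenchymal genes 4 rose and 1 fell (median log2 change 1.65), and of 18 epithelial genes 1 rose and none fell (median 0.40). Over all genes 5.04% rose and 3.09% fell. VIM (vimentin) had 29.5 and 27.7 CPM, then 1244 and 1243 CPM (log2 change 5.44, SE 0.15, adjusted p = 1.4e-12). FN1 (fibronectin) had 336 and 366 CPM, then 3203 and 3174 CPM. ZEB1, the closest relative of ZEB2, had 1.24 and 1.31 CPM, then 35 and 29.2 CPM. CDH1 (E-cadherin), the best known gene repressed by ZEB2, was lower at day 6 without reaching 8-fold (252 and 241 CPM, then 72.1 and 59.7 CPM, log2 change -1.89, adjusted p = 6.1e-09). The epithelial gene that rose was KRT19, a simple epithelial keratin, from 46.6 and 59.2 CPM to 658 and 791 CPM. PRRX1 rose from 0 counts, and TWIST2 fell but lost its call without day 6 replicate 1 (adjusted p = 0.011).

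Of 25 collagen and matrix genes, 7 rose and 3 fell (median log2 change 1.18), beside 5.04% and 3.09% of all genes. HAPLN1, which links hyaluronan to proteoglycans in cardiac jelly, had 6.2 and 10.6 CPM, then 1453 and 1323 CPM. LUM (lumican) had 0.169 and 0.0494 CPM, then 183 and 207 CPM, and COL3A1 and COL2A1 rose from at most 1.04 CPM to 90.6 and 94.7 CPM and to 365 and 271 CPM. COL6A1 fell from 1316 and 1488 CPM to 102 and 65.6 CPM. LAMA4 and EFEMP1, the other genes that fell, lost their 8-fold change or their adjusted p without 1 of several libraries, EFEMP1 at -2.99 without day 2 replicate 1 and -2.81 without day 6 replicate 2, and LAMA4 at -2.67 without day 2 replicate 2 and at an adjusted p of 0.018 without day 6 replicate 1.

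Proliferation genes were more often lower than higher at day 6, by less than 8-fold. Of 20 such genes none rose or fell, with 1 higher and 11 lower at 5% FDR, beside 24.6% and 24.1% of all genes. Their median log2 change was -0.42, and their sum went from 4112 and 3765 CPM to 2710.5 and 2738 CPM. MKI67, the proliferation antigen, had 296 and 269 CPM, then 137 and 133 CPM (log2 change -1.06, adjusted p = 3.8e-07). CCND1, cyclin D1, had 138 and 131 CPM, then 36.5 and 30.7 CPM. The CDK4 and CDK6 inhibitor gene CDKN2B was the 1 gene of the wider list that rose, from 0.0564 and 0.148 CPM to 20.7 and 18.4 CPM. None of 6 DNA methylation genes was called, a list too short to be set apart from the 5.04% and 3.09% of all genes. DNMT1 overlapped between the days (101 and 99.9 CPM, then 101 and 84.3 CPM).

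The largest rises and falls by size alone named further genes. Of the 15 largest rises among genes of at least 10 CPM at day 6, XIRP1, an actin-binding protein of intercalated discs, had no count at day 2 and 70.5 and 57.4 CPM at day 6, at least 806-fold higher. TECRL, an endoplasmic reticulum enzyme of the heart whose loss causes arrhythmia, also had no count at day 2 and had 76.9 and 57.8 CPM at day 6, at least 849-fold higher. UNC45B, the muscle myosin chaperone, had 0 and 0.0494 CPM, then 210.4 and 163 CPM, 7657-fold higher from 2 counts at day 2 (interval 2119 to 63234). CSRP3 and SMPX, both muscle structural proteins, the retinol dehydrogenase DHRS9, the synaptic organiser CBLN2 and the homeodomain factor NKX2-6 likewise rose from 0 counts, to between 19.3 and 38.8 CPM in each library. Together with MYBPC3, HNF4A, MYL4, TNNI1, PLN, MYH6 and RSPO2, these make up the 15.

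Beside DKK4, FGF4, FGF17 and SFRP2, the 15 largest falls held TNS4, a focal adhesion protein (8.49 and 11.6 CPM, then 0 in both, at least 73.3-fold lower). The interferon-induced IFIT2 had 16.5 and 14.1 CPM, then 0 and 0.149 CPM (2 counts), 552-fold lower with an interval of 152 to 4560.3. The cytokine gene IL33 had 13.5 and 12.2 CPM, then 0.0338 and 0 CPM (2 counts), 465-fold lower with an interval of 128 to 3847. DCLK1, a microtubule-associated kinase, had 192 and 162 CPM, then 0.88 and 0.522 CPM, and CDA, cytidine deaminase, had 49.1 and 42.9 CPM, then 0.186 and 0.149 CPM. Noncoding genes stood among them, MIR124-1HG, the host of a neural microRNA (23.4 and 23.8 CPM, then 0.0846 and 0 CPM), LINC00678 (19.5 and 16.1 CPM, then 0.0338 and 0.149 CPM) and EPHA1-AS1 (23.1 and 21.6 CPM, then 0.0677 and 0.149 CPM). The strand setting of the counting is not given in the sources used here, so reads of EPHA1-AS1 and of the gene opposite cannot be told apart. PRAC1, CHP2 and CDHR1 complete the 15, and the fitted log2 changes of MIR124-1HG and CHP2 (-8.37 and -8.03) became -12.99 and -12.64 without day 6 replicate 1.

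The next comparison asked whether the change from day 2 to day 6 differed between ZEB2 shRNA and WT cells, by the interaction of line and day in a fit of all 4 lines at both days (16 libraries, 17355 genes). LEFTY2, NODAL and EOMES were higher at day 6 in the knockdown line than in WT cells, and 11 of 35 sarcomere and 5 of 12 calcium handling genes had a more negative change than in WT cells at 5% FDR. By the 8-fold and 1% FDR rule, the change was more positive in ZEB2 shRNA cells for 27 genes (0.156%) and more negative for 12 (0.0691%). At 5% FDR it was more positive for 530 (3.05%) and more negative for 493 (2.84%). CPM values in this comparison are on the scale of the 4-line fit.

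LEFTY2 (NM_003240, chr1:226124298-226129083 in GRCh37) differed most. It had 2.36 and 2.6 CPM at day 2 and 29 and 26.6 CPM at day 6 in ZEB2 shRNA cells, against 2.96 and 3.93 CPM and then 0.0889 and 0.242 CPM in WT cells. At day 2 the 4 libraries lay between 2.36 and 3.93 CPM, and at day 6 the lines did not overlap, with a ZEB2 shRNA mean 168-fold the WT mean. The changes differed by 7.65 (log2, SE 0.41, adjusted p = 2.3e-08). NODAL (NM_018055, chr10:72191692-72207707 in GRCh37) had 147 and 139 CPM, then 119 and 129.7 CPM in ZEB2 shRNA cells, and 148 and 149.7 CPM, then 2.22 and 4.36 CPM in WT cells. Its changes differed by 5.22 (SE 0.30, adjusted p = 2.3e-08), and its day 6 level was 37.7-fold that of WT cells. LEFTY1 had 7.55 and 7.62 CPM, then 3.33 and 2.81 CPM, against 9.67 and 10.2 CPM, then 0.355 and 0 CPM in WT cells (difference 4.95, SE 0.68, adjusted p = 0.00023, and 10.21 without WT day 6 replicate 1). EOMES, which NODAL signalling induces, had 185 and 171 CPM at day 6 in ZEB2 shRNA cells and 11.2 in both WT libraries, after 596 and 615 CPM and 575 and 628 CPM at day 2 (difference 3.98, SE 0.23, adjusted p = 2.3e-08). CER1 was at 11.4 and 17.4 CPM against 1.2 and 1.31 CPM in WT cells (difference 3.39, adjusted p = 1.5e-06), and GDF3, another NODAL-related ligand, at 14.2 and 12.7 CPM against 3.64 and 2.69 CPM (difference 2.05, adjusted p = 0.00052). Of 11 NODAL list genes, 5 thus had a more positive change than in WT cells at 5% FDR and none a more negative one. The reads of LEFTY1 and LEFTY2 carry the uncertainty given above.

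The other genes named as most positive were not of the NODAL list. NR0B1 (DAX1), an orphan nuclear receptor of ESCs, had 1.86 and 1.99 CPM, then 11.8 and 10.5 CPM in ZEB2 shRNA cells, against 2.27 and 2.86 CPM, then 0.222 and 0.363 CPM in WT cells (difference 5.56, SE 0.53, adjusted p = 6.2e-06). ITPRID1 reached 5.07 and 5.55 CPM against 0 and 0.121 CPM in WT cells (difference 5.47), and its call was lost without WT day 2 replicate 1 (adjusted p = 0.017) while its difference became 9.95 without WT day 6 replicate 2. ELAVL4, a neuronal RNA-binding protein, reached 6.1 and 5.25 CPM against 0.311 and 0.533 CPM (difference 4.66, SE 0.67, adjusted p = 0.00034). Of 14 retinoic acid genes, 6 had a more positive change than in WT cells at 5% FDR and none a more negative one. RDH10 had 100 and 99.9 CPM at day 6 against 16.3 and 17.8 CPM in WT cells (difference 2.82, SE 0.20, adjusted p = 3.8e-07). CRABP1 is among the 6, with a difference of 1.25 that was 0.69 (adjusted p = 0.078) without WT day 6 replicate 2. In the EMT list, 4 of 18 epithelial genes had a more positive change at 5% FDR and none a more negative one (median difference 0.54). Of 14 mesenchymal genes 1 had a more positive change and none a more negative one (median difference -0.21). Over all genes the shares were 3.05% and 2.84%.

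**Figure D4:**
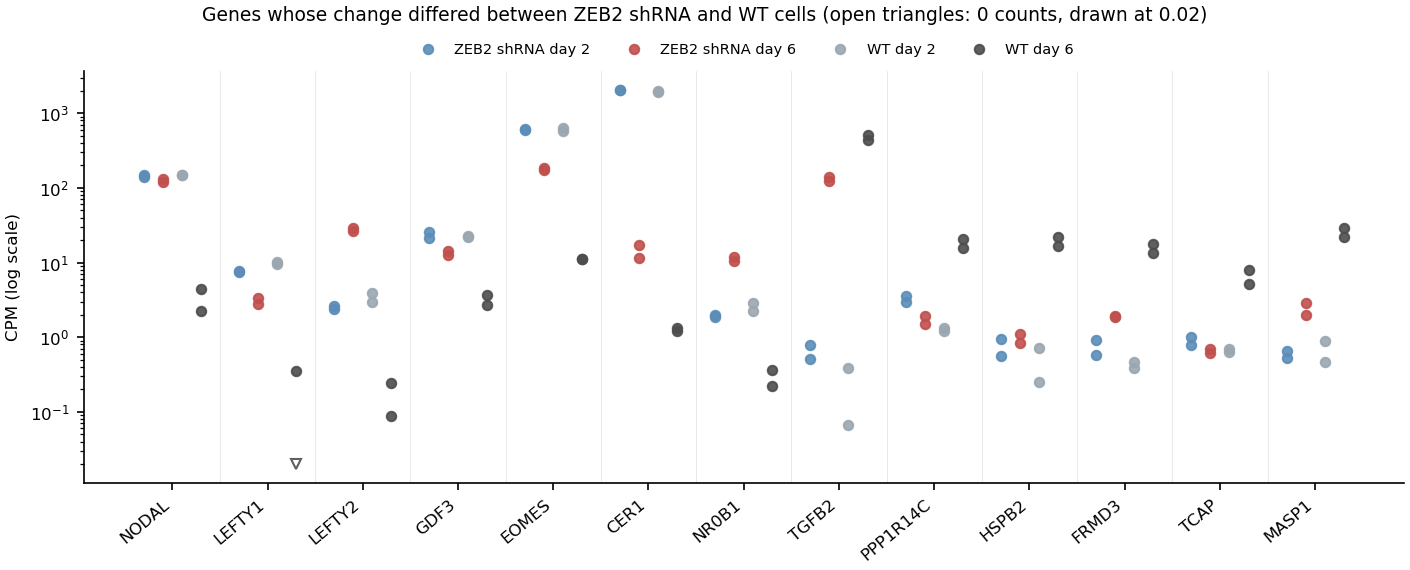
CPM on the scale of the 4-line fit (log y axis) in each ZEB2 shRNA and WT library at days 2 and 6 of 13 genes whose change differed between the lines, with open triangles for 0 counts. The lines lie close together at day 2 for NODAL, EOMES and CER1 and apart at day 6, where ZEB2 shRNA cells are higher for the first 7 genes and lower for the last 6.

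Of the genes with a more negative change than in WT cells, 6 are given here, of which TCAP and HSPB2 are known from muscle. TCAP, the Z-disc cap, had 0.69 and 0.609 CPM at day 6 in ZEB2 shRNA cells and 7.95 and 5.19 CPM in WT cells, after 0.625 to 1.01 CPM in both lines at day 2 (difference -3.74, SE 0.56, adjusted p = 0.00048). HSPB2, a small heat shock protein of muscle, had 1.11 and 0.837 CPM against 22.2 and 16.6 CPM in WT cells, after 0.254 to 0.934 CPM in both lines at day 2 (difference -4.70, SE 0.62, adjusted p = 0.00016). PPP1R14C, an inhibitor of protein phosphatase 1, had 1.94 and 1.52 CPM against 20.4 and 15.6 CPM, after 3 and 3.61 CPM against 1.32 and 1.21 CPM at day 2 (difference -4.70, SE 0.60, adjusted p = 0.00011). FRMD3 had 1.84 and 1.9 CPM against 17.5 and 13.5 CPM (difference -3.85, SE 0.45, adjusted p = 4.7e-05). TGFB2, a TGFβ ligand of the heart cushions, rose in both lines, from 0.777 and 0.516 CPM to 141 and 122 CPM in ZEB2 shRNA cells and from 0.0658 and 0.381 CPM to 515 and 432 CPM in WT cells (difference -3.70). The lines differed by 1.85 (log2, adjusted p = 0.27 by edgeR) at day 2 and by -1.85 (adjusted p = 1.8e-07) at day 6, so both days enter the value, and it was not called without WT day 2 replicate 1 (-2.59). MASP1, a complement protease, had 2.86 and 1.98 CPM against 29.4 and 22.3 CPM (difference -3.28) and was not called without WT day 2 replicate 1 (adjusted p = 0.019) or ZEB2 shRNA day 2 replicate 2 (adjusted p = 0.014).

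Across the 35 sarcomere genes in the 4-line fit the median log2 change was 7.32 in ZEB2 shRNA cells and 8.15 in WT cells, with a median difference of -0.89 beside 0.01 for all genes, and 11 of the 35 had a more negative change at 5% FDR and none a more positive one. They were MYL3, MYOM1, TNNI3, TPM1, TPM2, NEBL, ACTN2, LDB3, NEXN, DES and TCAP. TNNI3 had 2.14 and 2.89 CPM at day 6 against 14 and 12.5 CPM in WT cells (difference -2.71, adjusted p = 0.0037), and DES had 2.61 and 4.11 CPM against 16.4 and 16.4 CPM (difference -2.68, adjusted p = 0.00045). ACTN2, α-actinin of the Z-disc, had 36.9 and 24.9 CPM against 177 and 174 CPM (difference -2.35, adjusted p = 0.0077). TCAP, DES and TNNI3, none of which was higher at day 6 in ZEB2 shRNA cells, had log2 changes of 3.31, 2.42 and 1.67 in WT cells (adjusted p = 1.4e-06, 1.3e-06 and 0.00069 by edgeR). NEBL had 1588 and 1541 CPM against 4185 and 3306 CPM (difference -1.97, adjusted p = 4.8e-06). Of 12 calcium handling genes 5 also had a more negative change, among them SLC8A1 (253 and 233 CPM against 946 and 745 CPM, difference -1.80, adjusted p = 3.8e-06) and RYR2 (286 and 223 CPM against 733 and 492 CPM, difference -1.69, adjusted p = 0.00023). Of the cardiac transcription factors 5 of 27 had a more negative change, MEF2C at 295 and 249 CPM against 1139 and 811 CPM (difference -1.68, adjusted p = 0.02), and 1 a more positive one. In the endodermal and hepatic list 1 of 20 had a more positive change at 5% FDR and none a more negative one, beside 3.05% and 2.84% of all genes. Its 12 hepatic secretory genes had a median log2 change of 6.36 in ZEB2 shRNA cells and 8.15 in WT cells (median difference -1.56). For its 8 endoderm transcription factors the medians were 2.39 and 1.87 (median difference 0.79).

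**Figure D5:**
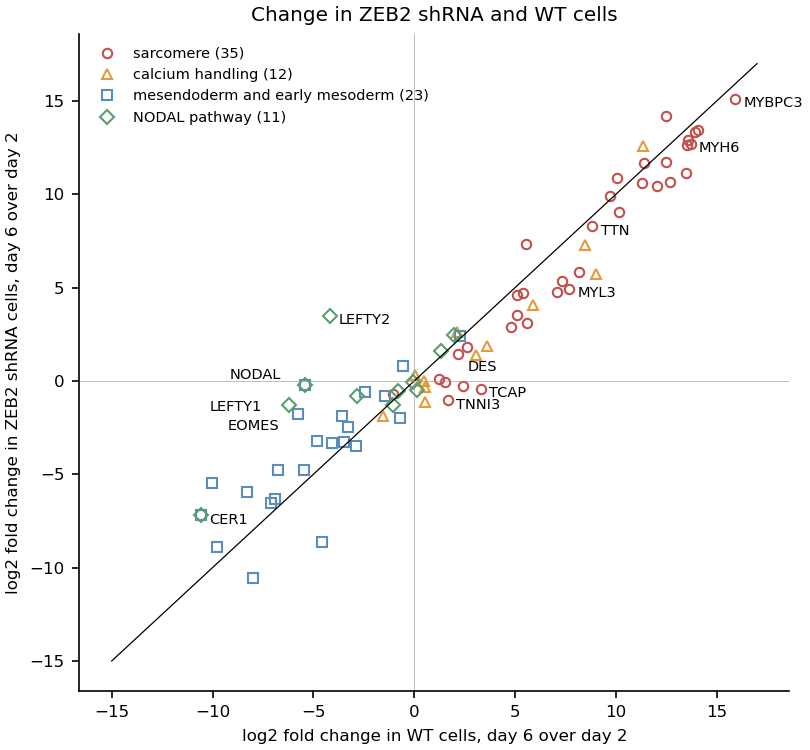
Log2 fold change from day 2 to day 6 in ZEB2 shRNA cells (y axis) against that in WT cells (x axis) for the genes of 4 lists in the 4-line fit, with the line of equal change. LEFTY2, NODAL, LEFTY1 and EOMES lie above the line, and TCAP, TNNI3, DES and MYL3 lie below it.

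The changes in the other 2 knockdown lines were compared in the same fit. Against NKX2-5 shRNA cells, the change in ZEB2 shRNA cells was more positive for 415 genes (2.39%) and more negative for 113 (0.651%). MYH6 had 2172 and 1917 CPM at day 6 in ZEB2 shRNA cells and 0.667 and 0.463 CPM in NKX2-5 shRNA cells (difference 11.03, SE 1.37, adjusted p = 8e-06). LEFTY2 was at 29 and 26.6 CPM against 0.0371 and 0.0604 CPM (difference 10.38, SE 0.45, adjusted p = 5.4e-11). On the other side, ALDH1A1 had 36.6 and 52.9 CPM against 617 and 564 CPM in NKX2-5 shRNA cells (difference -5.13, adjusted p = 7.5e-05). Against ZNF503 shRNA cells, 361 genes (2.08%) were more positive and 190 (1.09%) more negative. PI15, a secreted protease inhibitor, had 135 and 142 CPM at day 6 against 0.26 and 0 CPM (difference 10.38, SE 0.45, adjusted p = 7.5e-11, and 15.52 without ZNF503 shRNA day 6 replicate 1). VWF, which fell in ZEB2 shRNA cells, had 29.8 and 36.7 CPM, then 2.36 and 1.37 CPM, against 1.22 and 1.57 CPM, then 6.51 and 5.68 CPM in ZNF503 shRNA cells (difference -6.21, SE 0.37, adjusted p = 2.5e-09). The 3 comparisons share the ZEB2 shRNA libraries and are not independent of each other.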

How the data were processed

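RNA of H1 ESC lines was sequenced by the authors as paired-end, stranded total RNA libraries on a HiSeq2500, aligned to hg19 with TopHat2 (2.0.14, Bowtie2 2.2.1.0, SAMtools 0.1.19.0, as named in the submitters' processing notes) allowing 2 mismatches and 1 best hit, and counted per RefSeq gene region with RSeQC. The deposited values are raw counts per accession, with no normalization. Of 41627 accessions, 40281 (96.8%, with 97.1% of the counts) were matched to RefSeq symbols of GRCh38.p14, and of 7913 symbols with several accessions the row with the largest total over 30 libraries was kept, giving 23185 symbols. Rows without an accession (1077) and 4 day 10 columns (WT and ZEB2 shRNA, replicates 1 and 2), which did not follow the accessions, were not used.

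Library totals were 34829063 and 38360045 counts at day 2 and 61508899 and 13806093 at day 6. For each comparison, counts were tested with edgeR (4.0.16, R 4.3.3, limma 3.58.1): filterByExpr, TMM, glmQLFit and glmQLFTest, Benjamini-Hochberg adjustment, called at 8-fold and 1% FDR, prior count 0.125. The change within the line was fitted on its 8 libraries of days 0, 2, 6 and 10 (4 residual degrees of freedom) and the differences between lines on 16 libraries of days 2 and 6 (8 residual degrees of freedom). The SE is the log2 change divided by the square root of F. Alternatives were DESeq2 (1.42.0), edgeR's exact test, other scalings, filters and thresholds, and leaving out each library. The steps were tested on simulated counts.

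Named genes are ZEB2, up to 15 largest rises and 15 largest falls with at least 10 CPM and no overlap, list members, up to 6 genes with the most positive and 6 with the most negative difference per line with at least 5 CPM, and promoters of list members that hold a CArG box. The members and lists were chosen with earlier results of these data known. Some genes that the rule names are not reported here.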

Additional observations from a re-analysis of the deposited data

Results flagged for a closer look

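The change from day 2 to day 6 in ZEB2 shRNA cells differed from that in another line, by the interaction term of edgeR's quasi-likelihood fit of 16 libraries, at 8-fold and 1% FDR, for the genes given here as the log2 difference, with up to 6 genes in each direction and line. No explanation was tested. Where a group is at or near 0 counts the fitted difference depends on the prior count and is no estimate of size.

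Against WT cells, the difference was 7.65 for LEFTY2, 5.56 for NR0B1, 5.47 for ITPRID1, 5.22 for NODAL, 4.95 for LEFTY1 and 4.66 for ELAVL4. It was -4.70 for PPP1R14C, -4.70 for HSPB2, -3.85 for FRMD3, -3.74 for TCAP, -3.70 for TGFB2 and -3.28 for MASP1. The calls of ITPRID1 (5.44, adjusted p = 0.017), TGFB2 (-2.59, adjusted p = 0.01) and MASP1 (-2.78, adjusted p = 0.019) were lost without WT day 2 replicate 1, and that of MASP1 (-3.11, adjusted p = 0.014) also without ZEB2 shRNA day 2 replicate 2, all in the edgeR fit. Without 1 WT day 6 library the value was 9.95 for ITPRID1 (replicate 2) and 10.21 for LEFTY1 (replicate 1).

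Against NKX2-5 shRNA cells, the difference was 12.51 for MYBPC3, 11.03 for MYH6, 10.82 for ASB2, 10.78 for ZNF560, 10.77 for CYSLTR2 and 10.38 for LEFTY2. It was -9.39 for LINC03033, -8.35 for SLC39A5, -7.37 for AMN, -5.13 for ALDH1A1 and -5.10 for PCDH15. ZNF560, a zinc finger gene, stands apart from the others because it had 0 CPM in both ZEB2 shRNA libraries at day 2 and 0.118 and 0 CPM at day 6, against 10.2 and 10.7 CPM and then 0.26 and 0.101 CPM in NKX2-5 shRNA cells, so its value rests on the fall in the other line together with the reads of 1 ZEB2 shRNA library over 0 counts. Without that library, ZEB2 shRNA day 6 replicate 1, the value was 5.99 and the call was lost (adjusted p = 1). Without NKX2-5 shRNA day 2 replicate 1 the calls of MYBPC3 (9.45, adjusted p = 1), CYSLTR2 (7.70, adjusted p = 1) and SLC39A5 (-8.33, adjusted p = 0.018) were lost. SLC39A5 (-7.86, adjusted p = 0.022) was also lost without ZEB2 shRNA day 2 replicate 2, and ASB2 (10.05, adjusted p = 0.013) without NKX2-5 shRNA day 2 replicate 2.

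Against ZNF503 shRNA cells, the difference was 11.85 for ADAMTS8, 10.85 for ABCB11, 10.38 for PI15, 9.67 for FGF9 (13.54 without ZNF503 shRNA day 6 replicate 1), 9.64 for CD300E and 9.52 for C1QL1. It was -9.94 for GPR55, -6.93 for AVPR1A, -6.87 for KCNJ15, -6.21 for VWF and -5.96 for SLC6A4. VWF fell in ZEB2 shRNA cells (29.8 and 36.7 CPM, then 2.36 and 1.37 CPM) and went from 1.22 and 1.57 CPM to 6.51 and 5.68 CPM in ZNF503 shRNA cells. The call of CD300E was lost without ZNF503 shRNA day 2 replicate 1 (5.65, adjusted p = 1), which also moved AVPR1A to -11.59. KCNJ15 was lost without ZNF503 shRNA day 2 replicate 1 (-6.72, adjusted p = 0.025) and without ZEB2 shRNA day 2 replicate 1 (-6.79, adjusted p = 0.011) or replicate 2 (-6.94, adjusted p = 0.012). SLC6A4 was lost without any of 7 single libraries, with values from -10.04 (ZNF503 shRNA day 2 replicate 1, adjusted p = 0.012) to -5.44 (ZEB2 shRNA day 6 replicate 1, adjusted p = 0.018), and without TMM scaling (-6.02, adjusted p = 0.01).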

How the results depend on the processing

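Directions held for nearly every named gene, and counts moved with the threshold. At 5% FDR with no fold threshold the day 6 against day 2 counts were 4361 higher and 4282 lower, and at 4-fold and 10% FDR 1457 and 1093. The same settings gave 530 and 493, then 148 and 112 differences (more positive and more negative) from WT cells, 3589 and 3258, then 1117 and 546 from NKX2-5 shRNA cells, and 3740 and 3437, then 983 and 702 from ZNF503 shRNA cells. With no filter on low counts, 23 genes were more negative than in WT cells. Other tools and scalings stayed within 1.5 times the counts of the report: 871 higher and 496 lower by DESeq2, 860 and 538 by the exact test, 849 and 588 without TMM scaling. Without TMM scaling the median of all genes moved by -0.1 to -0.11, and the median of the DNA methylation list from 0.08 to -0.02. Leaving out 1 library in turn gave 782 to 868 higher and 449 to 520 lower genes, 22 to 31 more positive and 9 to 16 more negative than in WT cells, 352 to 448 and 95 to 120 against NKX2-5 shRNA cells, and 280 to 374 and 150 to 203 against ZNF503 shRNA cells. The log2 difference of ZEB2 from WT cells lay between -0.71 and -0.53 (day 2) or -0.80 and -0.72 (day 6). DES ranged from -0.56 to 0.07. Over all settings of the named genes in the day 6 against day 2 comparison, 3084 kept direction and call, 28 lost the call and 1 changed sign, which is DES.

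Deviations of libraries with the same replicate number were little correlated across genes (-0.139 between days 0 and 2, 0.0292 between days 0 and 6, 0.0245 between days 2 and 6). With 2 libraries for each of these days, such values cannot decide whether the libraries were paired. With the replicate number as a block in a fit of days 0, 2 and 6, 836 genes were higher and 526 lower, and the fit of these days without the block gave 866 and 559. The fitted change of genes at the limit of detection is no bound, and the shallow second day 6 library (13806093 counts) sets the floor there, 0.224 CPM against 0.0507 CPM in the first.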
